A study of Mus musculus with 6 samples.

Results

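A set of 10 genes whose products fill the granules of neutrophils were followed in mouse cochleae, wildtype or *Pou4f3(Δ/+)*. They were taken by gene symbol, 4 for the early (primary, azurophil) granules, *Mpo*, *Elane*, *Prtn3* and *Ctsg*, and 6 for the later granules and cytoplasm, *Ltf*, *Camp*, *Ngp*, *Lcn2*, *S100a8* and *S100a9*. All 10 were among the 51802 symbols listed and among the 17136 genes with enough counts to be tested. RNA-seq had been run on total RNA of cochleae from mice at 2 months of age on the C57/BL6J background, 3 samples from wildtype animals (replicates 3, 4 and 5) and 3 from littermates heterozygous for Δ, a knock-in allele with a small deletion in *Pou4f3* that yields a truncated protein (replicates 1, 2 and 3). *Pou4f3* encodes a transcription factor of hair cells, and the allele is in the germ line, so every cell of these mice carries it. How many animals gave RNA to a sample is not given in the sources used here, so a p-value measures the spread between these samples.

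Neutrophils load their granules in a fixed order while they mature in the bone marrow. Promyelocytes make the myeloperoxidase and serine proteases of the primary granules, myelocytes then make lactoferrin and the other proteins of the secondary granules, and the S100A8 and S100A9 proteins fill the cytoplasm of later stages. Transcripts of the early genes are largely gone from neutrophils in the blood, so the balance of early to late granule RNA is commonly read as a stage marker. Transcription factors of the C/EBP family and the ETS factor PU.1 drive this program.

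The sequences before the start sites are shown because the 4 early genes varied together across samples, as described further on. All 10 members were found in the RefSeq promoter table (GRCm38.p6), and the 250 bases before each start were searched on both strands for GAGGAA, the core letters of PU.1 sites, and for TTGCNNAA, a C/EBP-type pattern. No match of one pattern overlapped a match of the other in the windows of the members. GAGGAA was present in all 4 early windows and in 3 of the 6 late ones, against 23.3% of 32851 promoter windows of that length. TTGCNNAA was present in 0 of the 4 early windows and in 4 of the late ones, those of *Ltf*, *Ngp*, *Lcn2* and *S100a9*, against 9.56% of all windows. The 4 early genes and, for contrast, *Ltf* and *Ngp* are printed 5′ to 3′ on the gene's strand, leaving out bases that GENCODE M21 places in an exon, with either pattern on either strand in capitals.
*Mpo*: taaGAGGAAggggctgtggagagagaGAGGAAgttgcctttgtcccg
*Elane*: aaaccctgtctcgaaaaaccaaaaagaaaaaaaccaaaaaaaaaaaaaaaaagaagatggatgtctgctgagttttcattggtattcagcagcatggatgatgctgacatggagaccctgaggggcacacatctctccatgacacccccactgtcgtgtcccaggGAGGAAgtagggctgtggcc
*Prtn3*: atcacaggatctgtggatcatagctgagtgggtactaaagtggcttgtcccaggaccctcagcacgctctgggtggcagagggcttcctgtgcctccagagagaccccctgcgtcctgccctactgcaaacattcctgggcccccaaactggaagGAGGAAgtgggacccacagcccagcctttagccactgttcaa
*Ctsg*: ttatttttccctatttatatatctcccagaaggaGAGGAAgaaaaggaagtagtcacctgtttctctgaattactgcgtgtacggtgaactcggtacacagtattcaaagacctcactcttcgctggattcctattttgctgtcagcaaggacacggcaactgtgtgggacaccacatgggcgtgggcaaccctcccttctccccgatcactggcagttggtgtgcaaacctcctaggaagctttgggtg
*Ltf*: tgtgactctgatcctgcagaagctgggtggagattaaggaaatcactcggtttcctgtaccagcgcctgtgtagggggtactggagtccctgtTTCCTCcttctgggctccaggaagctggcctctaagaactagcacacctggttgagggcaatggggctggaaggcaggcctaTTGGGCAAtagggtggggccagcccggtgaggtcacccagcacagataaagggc
*Ngp*: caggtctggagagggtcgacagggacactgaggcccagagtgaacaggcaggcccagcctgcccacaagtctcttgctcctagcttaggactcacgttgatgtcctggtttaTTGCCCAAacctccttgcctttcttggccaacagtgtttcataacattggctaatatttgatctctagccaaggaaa
The *Mpo* stretch at chr11:87793534-87793580 (plus strand) holds GAGGAA at 247 and at 224 bases before the start, and the *Elane* stretch at chr10:79886062-79886246 (plus) holds it at 85. The *Prtn3* stretch at chr10:79879417-79879613 (plus) holds it at 95 and the *Ctsg* stretch at chr14:56102575-56102824 (minus) at 216. *Elane* and *Prtn3* are neighbours on chromosome 10. The *Ltf* stretch at chr9:111019042-111019270 (plus) has a C/EBP-type match at 75 and GAGGAA at 157, both read on the other strand, and the *Ngp* stretch at chr9:110419558-110419746 (plus) has a C/EBP-type match at 138, with another at 11 outside the printed bases. In GENCODE M21 (GRCm38) the early genes span chr11:87793581-87804413 (*Mpo*, plus strand), chr10:79886247-79888215 (*Elane*, plus), chr10:79874476-79883174 (*Prtn3*, plus) and chr14:56099881-56102574 (*Ctsg*, minus). The genes *Ltf* (chr9:111019271-111042767, plus), *Camp* (chr9:109847379-109849617, minus) and *Ngp* (chr9:110419747-110423012, plus) lie on chromosome 9, *S100a8* (chr3:90668978-90670035, plus) and *S100a9* (chr3:90692632-90695721, minus) on chromosome 3, and *Lcn2* (chr2:32384633-32388252, minus) on chromosome 2. A match of letters describes the sequence and does not show a bound site.

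Granule transcripts were among the most abundant in these cochlear libraries. Levels are given as FPKM, fragments corrected for the length of the transcript and the depth of the sample, summed over the transcripts of a gene. By mean FPKM over the 6 samples, 3 members ranked in the top 20 of all genes and 9 in the top 100. *S100a9*, with its partner *S100a8* a subunit of the calcium-binding protein calprotectin, stood highest at 5808 FPKM and rank 4, and *Ctsg*, the protease cathepsin G, stood lowest at 205.8 FPKM and rank 248. The order of mean levels was *S100a9*, *Ngp*, *S100a8*, *Lcn2*, *Ltf*, *Camp*, *Mpo*, *Elane*, *Prtn3* and *Ctsg*. Most neighbours in this order kept it in all 6 samples. *Ngp* exceeded *S100a8* in 4 of 6 samples and *Elane* exceeded *Prtn3* in 5 of 6, so these neighbours could not be ordered beyond their spread. The 10 genes took 1.33% to 1.62% of all counts in a sample, the early genes 0.177% to 0.342% and the late genes 1.11% to 1.41%. Summed counts were 14295069 to 17696784 per sample, and even the lowest member value, *Ctsg* in *Pou4f3(Δ/+)* replicate 1, rested on 2621 counts.

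**Figure D1:**
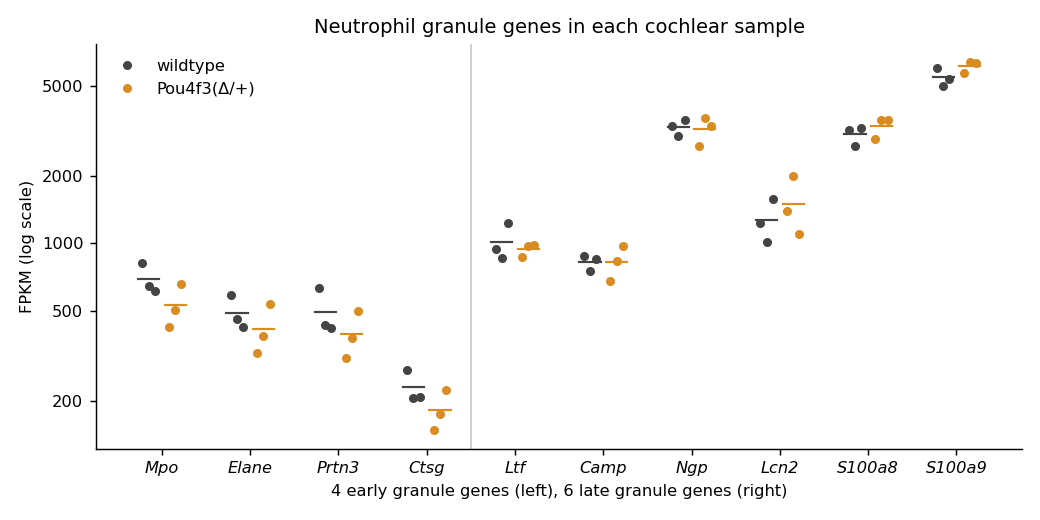
FPKM (log axis) of the 10 granule genes in each of 3 wildtype (grey) and 3 *Pou4f3(Δ/+)* (orange) samples, in replicate order within a group, with a line at the mean of each group. By group mean the late genes lie above the early genes, and the groups overlap for each of the 10 genes.

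The libraries also held the tissue named in the labels. *Coch*, the cochlin of the inner ear, averaged 2349 FPKM over wildtype samples (SD 415, n = 3) and 2091 FPKM over *Pou4f3(Δ/+)* samples (SD 59.1, n = 3), and 9 hair cell markers summed to 45.2 to 54.1 FPKM across the 6 samples. *Pou4f3* had 68, 72 and 88 counts in wildtype and 66, 97 and 52 counts in *Pou4f3(Δ/+)* samples, and since both alleles add to them, they do not check the genotype labels. *Pou4f3(Δ/+)* replicates 1 and 2 lay away from the remaining 4 libraries on the leading principal component of all genes, which held 32.5% of the variance. Their scores were 23.2 and 40.2, against -21.5 to -11.7 in the others, *Pou4f3(Δ/+)* replicate 3 included. Results for the granule genes are therefore given with and without these samples.

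*Mpo* encodes myeloperoxidase, which makes hypochlorous acid in the phagosome. Its level was 822, 648 and 614 FPKM in wildtype samples (replicates 3, 4 and 5), against 425, 504 and 662 FPKM in *Pou4f3(Δ/+)* samples (replicates 1, 2 and 3). *Pou4f3(Δ/+)* replicates 1 and 2 lay below every wildtype sample, while *Pou4f3(Δ/+)* replicate 3 lay within the wildtype range. The log2 fold change, *Pou4f3(Δ/+)* over wildtype, was -0.40 (95% CI -0.79 to -0.01), with an adjusted p of 0.643 by edgeR's quasi-likelihood test. *Mpo* was the only member with an unadjusted p under 0.05 in this test, a limit that 7.64% of all genes tested passed and 4.14% passed on the lower side. In bulk RNA, fewer cells of a type and less RNA per cell cannot be told apart.

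*Elane*, neutrophil elastase, was at 589, 460 and 424 FPKM in wildtype and at 326, 389 and 539 FPKM in *Pou4f3(Δ/+)* samples, in the same replicate order. *Prtn3*, proteinase 3, was at 633, 433 and 421 FPKM in wildtype and at 308, 381 and 503 FPKM in *Pou4f3(Δ/+)*. *Ctsg* was at 274, 205 and 209 FPKM in wildtype and at 148, 175 and 224 FPKM in *Pou4f3(Δ/+)*. In all 3 protease genes wildtype replicate 3 was the highest sample, *Pou4f3(Δ/+)* replicate 3 the second highest and *Pou4f3(Δ/+)* replicates 1 and 2 the lowest. The log2 fold changes were -0.24 for *Elane* (95% CI -0.66 to 0.18, edgeR adjusted p = 0.753), -0.33 for *Prtn3* (95% CI -0.79 to 0.13, edgeR adjusted p = 0.691) and -0.34 for *Ctsg* (95% CI -0.70 to 0.03, edgeR adjusted p = 0.648). The interval includes 0 for each of these proteases.

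Among the late genes, *Ltf*, *Camp* and *Ngp*, whose products fill the secondary granules, had log2 fold changes near 0. *Ltf* encodes lactoferrin, which binds iron, and was at 947, 862 and 1236 FPKM in wildtype and 867, 974 and 987 FPKM in *Pou4f3(Δ/+)*. *Camp* encodes the precursor of the cathelicidin peptide and was at 879, 752 and 855 FPKM in wildtype and 682, 832 and 976 FPKM in *Pou4f3(Δ/+)*. *Ngp*, neutrophilic granule protein, was at 3317, 3015 and 3529 FPKM in wildtype and 2699, 3605 and 3319 FPKM in *Pou4f3(Δ/+)*. The highest *Ltf* sample was wildtype, the highest *Camp* and *Ngp* samples were *Pou4f3(Δ/+)*, and the groups overlapped for each gene. Log2 fold changes were -0.11 for *Ltf* (95% CI -0.44 to 0.22), -0.0006 for *Camp* (95% CI -0.30 to 0.30) and -0.04 for *Ngp* (95% CI -0.33 to 0.26), with edgeR adjusted p-values of 0.856, 0.998 and 0.955.

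*Lcn2* encodes lipocalin 2, another protein of the secondary granules, which withholds iron from bacteria by binding siderophores. It was at 1238, 1020 and 1570 FPKM in wildtype and at 1393, 2000 and 1105 FPKM in *Pou4f3(Δ/+)*. *Pou4f3(Δ/+)* replicate 2 was the highest sample and wildtype replicate 4 the lowest. *S100a8* was at 3192, 2701 and 3254 FPKM in wildtype and 2913, 3545 and 3526 FPKM in *Pou4f3(Δ/+)*. *S100a9* was at 6029, 5017 and 5359 FPKM in wildtype and 5736, 6372 and 6333 FPKM in *Pou4f3(Δ/+)*. For both S100 genes *Pou4f3(Δ/+)* replicates 2 and 3 exceeded every wildtype sample and *Pou4f3(Δ/+)* replicate 1 did not. Log2 fold changes were 0.23 for *Lcn2* (95% CI -0.29 to 0.76), 0.12 for *S100a8* (95% CI -0.14 to 0.39) and 0.17 for *S100a9* (95% CI -0.07 to 0.41), with edgeR adjusted p-values of 0.802, 0.797 and 0.697.

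Over the 10 members, 0 passed an adjusted p of 0.05 by edgeR, as did 0.00% of all genes tested, and the smallest adjusted p of any gene was 0.223. DESeq2 gave 0 of the 10 an adjusted p under 0.05, against 0.373% of all genes, and 2 of them, *Mpo* and *Ctsg*, an unadjusted p under 0.05, which 6.72% of all genes passed. limma on log2(FPKM + 0.5) gave 0 by either limit. All 4 early genes had negative log2 fold changes, with a median of -0.33, while 3 late genes were on each side, with a median of 0.06. The median over all genes tested was -0.003. The groups of 3 overlapped in FPKM and in library-scaled counts for all 10 members, while the groups of 12.7% of all genes did not overlap in library-scaled counts.

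**Figure D2:**
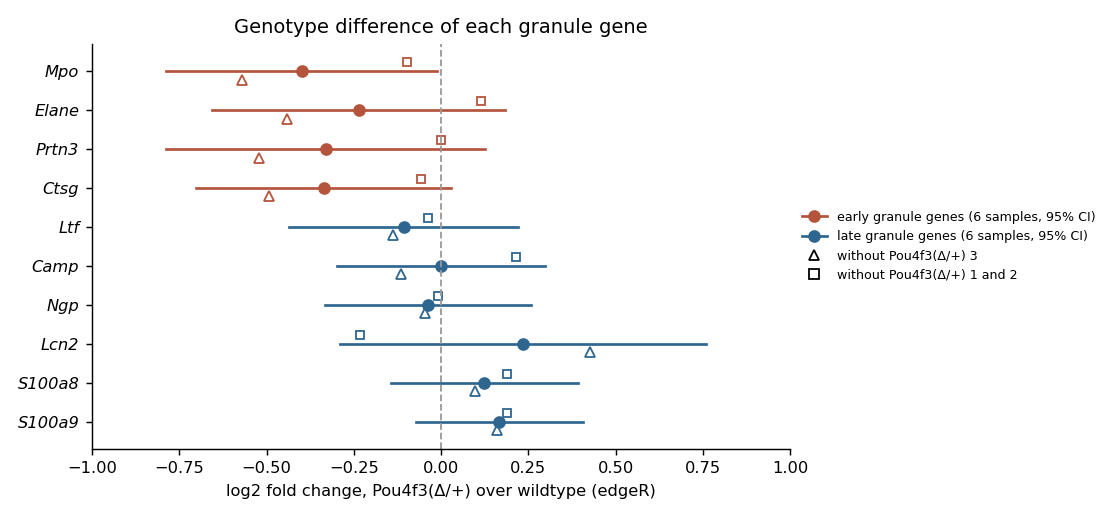
Log2 fold change, *Pou4f3(Δ/+)* over wildtype, of each granule gene by edgeR (x axis), with all 6 samples (filled circles, lines for the 95% confidence interval), without *Pou4f3(Δ/+)* replicate 3 (triangles) and without *Pou4f3(Δ/+)* replicates 1 and 2 (squares). The early genes (red) move from -0.57 to -0.44 without *Pou4f3(Δ/+)* replicate 3 to between -0.10 and 0.11 without *Pou4f3(Δ/+)* replicates 1 and 2.

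The early-gene difference depended on single samples of both genotypes. Without *Pou4f3(Δ/+)* replicate 3, the log2 fold changes were -0.57 for *Mpo*, -0.44 for *Elane*, -0.52 for *Prtn3* and -0.49 for *Ctsg*. All 4 then had an unadjusted p under 0.05, which 8.69% of all genes tested passed on the lower side, and edgeR adjusted p-values of 0.114, 0.193, 0.206 and 0.146, while 1.10% of all genes passed an adjusted p of 0.05. Without *Pou4f3(Δ/+)* replicates 1 and 2, which leaves a single *Pou4f3(Δ/+)* sample that is assumed to vary like the wildtype ones, the values were -0.10 for *Mpo*, 0.11 for *Elane*, -0.002 for *Prtn3* and -0.06 for *Ctsg*. Without wildtype replicate 3, the sample with the highest early genes, they were -0.25 for *Mpo*, -0.08 for *Elane*, -0.11 for *Prtn3* and -0.18 for *Ctsg*. Without *Pou4f3(Δ/+)* replicate 1, the sample with the lowest, they were -0.26, -0.09, -0.18 and -0.21 in the same order of genes. *Lcn2* went from 0.43 without *Pou4f3(Δ/+)* replicate 3 to -0.23 without *Pou4f3(Δ/+)* replicates 1 and 2. It was -0.04 without *Pou4f3(Δ/+)* replicate 2 and 0.10 without wildtype replicate 4. *S100a9* was at 0.16 without *Pou4f3(Δ/+)* replicate 3 and 0.19 without *Pou4f3(Δ/+)* replicates 1 and 2.

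The same samples differed in the balance of early to late granule RNA. The summed FPKM of the 4 early genes came to 2318, 1746 and 1667 in wildtype, against 1206, 1449 and 1928 in *Pou4f3(Δ/+)*, in the same replicate order. As a percentage of the summed FPKM of the 6 late genes, this was 14.9%, 13.1% and 10.6% in wildtype (12.8% ± 2.17, SD, n = 3) and 8.44%, 8.36% and 11.9% in *Pou4f3(Δ/+)* (9.56% ± 2.00, SD, n = 3). *Pou4f3(Δ/+)* replicates 1 and 2 had the lowest percentages and *Pou4f3(Δ/+)* replicate 3 lay between wildtype replicates 4 and 5, so the groups overlapped. On a scale that weights each gene equally, the mean log2(CPM + 1) of the early minus that of the late genes (CPM, counts scaled to the library total) averaged -1.69 over wildtype (SD 0.29, n = 3) and -2.08 over *Pou4f3(Δ/+)* samples (SD 0.29, n = 3), a difference of -0.39. That difference was -0.06 without *Pou4f3(Δ/+)* replicates 1 and 2. The late sum itself ran from 13370 to 15800 FPKM in wildtype and from 14290 to 17330 FPKM in *Pou4f3(Δ/+)*.

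**Figure D3:**
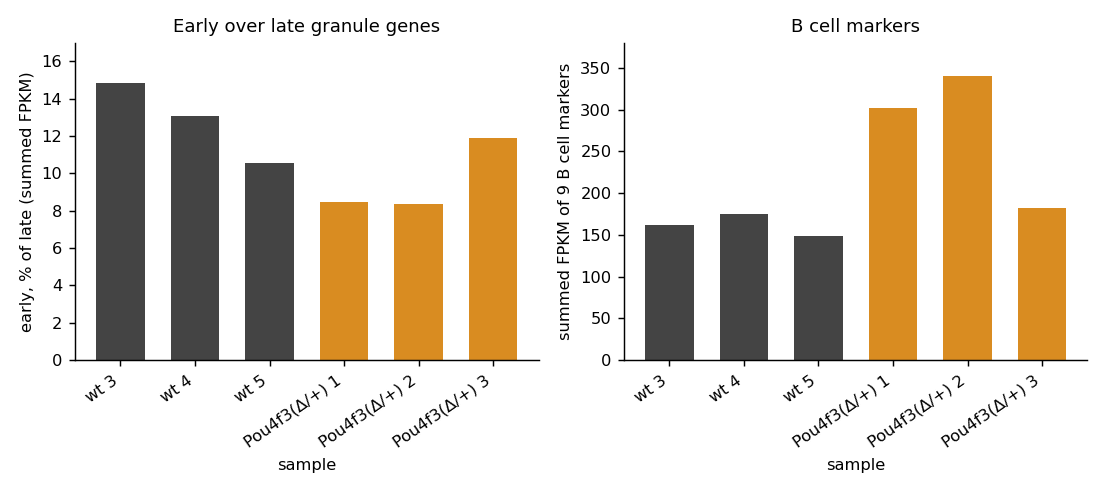
Summed FPKM of the 4 early granule genes as a percentage of that of the 6 late genes (left), and summed FPKM of 9 B cell markers (right), 1 bar per sample, wildtype in grey and *Pou4f3(Δ/+)* in orange. *Pou4f3(Δ/+)* replicates 1 and 2 have the lowest early percentages, 8.44% and 8.36%, and the highest B cell sums, 301.5 and 340.1 FPKM.

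By summed FPKM, markers of B cells and of erythroid cells were highest in *Pou4f3(Δ/+)* replicates 1 and 2. The 9 B cell markers summed to 148.6 to 175.2 FPKM in wildtype, to 301.5 and 340.1 FPKM in *Pou4f3(Δ/+)* replicates 1 and 2, and to 181.6 FPKM in *Pou4f3(Δ/+)* replicate 3. Of them, 8 had an unadjusted p under 0.05 on the higher side, which 3.50% of all genes tested passed. Their median log2 fold change was 0.84, and 0.14 without *Pou4f3(Δ/+)* replicates 1 and 2. Of 9 T and NK cell markers, 4 passed that limit on the higher side, with a summed FPKM between 53.8 and 64.9 in wildtype, against 55.6 to 85.3 in *Pou4f3(Δ/+)*, and a median log2 fold change of 0.95, or -0.35 without those replicates. Of 11 erythroid markers, 4 passed the unadjusted limit on the higher side, with a median of 0.37, or -0.003 without *Pou4f3(Δ/+)* replicates 1 and 2. None of these genes had an adjusted p under 0.05 by edgeR. The part of these cells in the early-gene values was not tested.

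Within a sample, the early genes kept nearly fixed proportions. Over all 6 samples, the SD of the log2 ratio between early genes was 0.05 to 0.09 in the 6 pairs (median 0.08). For the 15 pairs of late genes it was 0.09 to 0.41 (median 0.17), and for the 24 early-late pairs 0.21 to 0.60 (median 0.32). The pairs share genes and are not independent. *Mpo* and *Ctsg* were the tightest pair, at 0.05, although they lie on chromosomes 11 and 14. Among the late genes the tightest pair was *S100a8* with *S100a9*, at 0.09, with *S100a8* at 50.8% to 60.7% of *S100a9* in FPKM. The widest was *Camp* with *Lcn2*, at 0.41. Without regard to genotype, the coefficient of variation of FPKM over the 6 samples was 20.99% to 25.0% for the early genes, 25.9% for *Lcn2* and 9.35% to 13.97% for the other late genes.

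**Figure D4:**
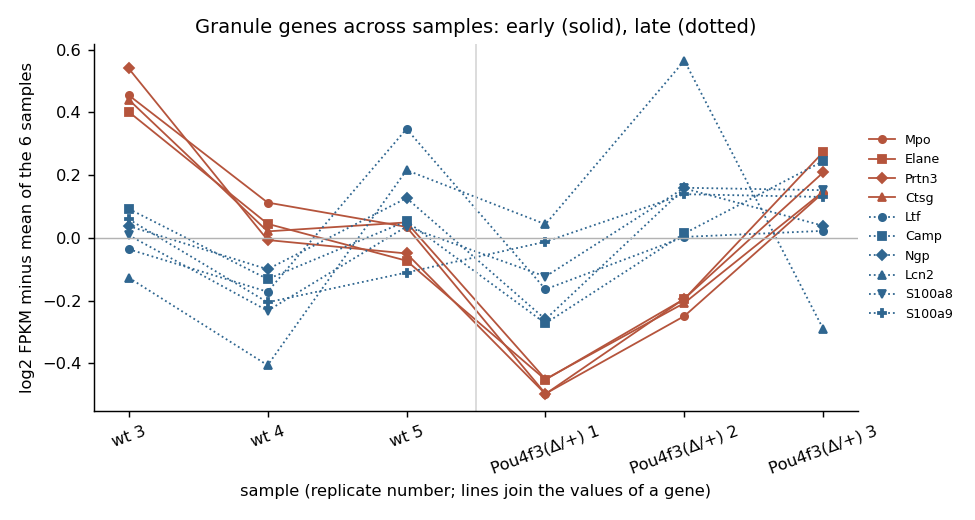
Log2 FPKM of each granule gene minus its mean over the 6 samples (y axis), by sample (x axis), with early genes as solid red and late genes as dotted blue lines. The 4 early genes follow nearly the same course, highest in wildtype replicate 3 and lowest in *Pou4f3(Δ/+)* replicate 1, and *Lcn2* departs from the other late genes in *Pou4f3(Δ/+)* replicates 2 and 3.

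In some pairs of genes the proportion did not overlap between the groups. *Mpo* per 100 *Elane*, in FPKM, was 139.6, 141.0 and 145.0 in wildtype and 130.5, 129.6 and 123.0 in *Pou4f3(Δ/+)*. This held in *Pou4f3(Δ/+)* replicate 3 as in replicates 1 and 2, unlike the fold changes of the genes themselves. *Mpo* per 100 *S100a9* was 13.6, 12.9 and 11.5 in wildtype and 7.40, 7.91 and 10.5 in *Pou4f3(Δ/+)*. In all, the groups did not overlap in 9 of the 45 pairs. The share of other gene pairs without overlap was not computed, so this count has no background. The 9 pairs are built from the same few genes and are not independent. Of them, 6 were early-late pairs in which the early gene, *Mpo* or *Ctsg* in every case, was proportionally lower in *Pou4f3(Δ/+)* relative to *Camp*, *S100a8* or *S100a9*. The other two, beside *Mpo* with *Elane*, were *Ltf* with *S100a9* and *Ngp* with *S100a8*, with the first-named gene proportionally lower in *Pou4f3(Δ/+)*. *Lcn2* per 100 *Ltf* was 130.7, 118.3 and 127.0 in wildtype and 160.7, 205.5 and 112.0 in *Pou4f3(Δ/+)*, with the *Pou4f3(Δ/+)* samples on both sides of the wildtype range. These ratios carry no test.

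The main transcript of each gene took a similar share of its counts in all samples. *Elane*, *Ctsg*, *Camp* and *Ngp* were each listed with 1 transcript. A single protein-coding transcript took 87.7% to 90.3% of *Mpo* counts, 91.5% to 94.1% of *Prtn3* counts, 95.7% to 97.0% of *Ltf* counts, 96.0% to 96.8% of *Lcn2* counts and 98.3% to 98.9% of *S100a8* counts. *S100a9* divided its counts between 2 protein-coding transcripts, 83.4% to 84.6% and 15.4% to 16.6%.

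Other genes of the neutrophil program were read in the same fit. Of 10 further genes of the primary granules and lysosomes, 0 had an adjusted p and 0 an unadjusted p under 0.05 by edgeR. Their log2 fold changes were negative in 8 and had a median of -0.10, or -0.06 without *Pou4f3(Δ/+)* replicates 1 and 2. *Lyz2*, the lysozyme of neutrophils and macrophages, was at 2004, 1416 and 1541 FPKM in wildtype and 1383, 1276 and 1740 FPKM in *Pou4f3(Δ/+)*, with *Pou4f3(Δ/+)* replicates 1 and 2 lowest. Its log2 fold change was -0.18 (SE 0.157, edgeR adjusted p = 0.780). *Srgn*, the proteoglycan core that packs granule proteins, was at 369, 343 and 344 FPKM in wildtype and 293, 390 and 350 FPKM in *Pou4f3(Δ/+)*, with *Pou4f3(Δ/+)* replicate 2 highest. *Cd63*, a granule membrane protein, was at 227, 201 and 227 FPKM in wildtype and 193, 204 and 208 FPKM in *Pou4f3(Δ/+)*. *Srgn* and *Cd63* thus did not share the sample order of the early members. *Ctsc*, which activates the granule serine proteases, had a log2 fold change of -0.14, *Prss57*, a protease of the same granules, -0.25, and *Ms4a3*, a marker of granulocyte and monocyte progenitors, -0.03.

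Of 19 tested genes of the secondary and tertiary granules and 17 of mature neutrophils, 0 had an adjusted or an unadjusted p under 0.05 by edgeR, with medians of 0.04 and 0.06. Both medians depended on the samples used, moving to -0.11 and -0.20 without *Pou4f3(Δ/+)* replicates 1 and 2 and to 0.09 and 0.14 without *Pou4f3(Δ/+)* replicate 3. *Chil3*, a chitinase-like protein, was at 814, 563 and 847 FPKM in wildtype and 916, 1373 and 617 FPKM in *Pou4f3(Δ/+)*. *Retnlg*, resistin-like gamma, was at 555, 557 and 696 FPKM in wildtype and 704, 909 and 555 FPKM in *Pou4f3(Δ/+)*. Like *Lcn2*, both had their highest value in *Pou4f3(Δ/+)* replicate 2, and in both *Pou4f3(Δ/+)* replicate 3 was lower than *Pou4f3(Δ/+)* replicates 1 and 2. The mature neutrophil markers summed to 615 to 680 FPKM in wildtype and 597 to 881 FPKM in *Pou4f3(Δ/+)*. Of the 17 mature neutrophil markers, 10 had positive and 7 negative log2 fold changes. *Fpr2*, a formyl peptide receptor of neutrophils, had a log2 fold change of 0.37 (SE 0.224, edgeR adjusted p = 0.691). It was at 57.3, 58.0 and 73.4 FPKM in wildtype and 72.6, 110 and 59.5 FPKM in *Pou4f3(Δ/+)*, with only *Pou4f3(Δ/+)* replicate 2 above every wildtype sample.

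**Figure D5:**
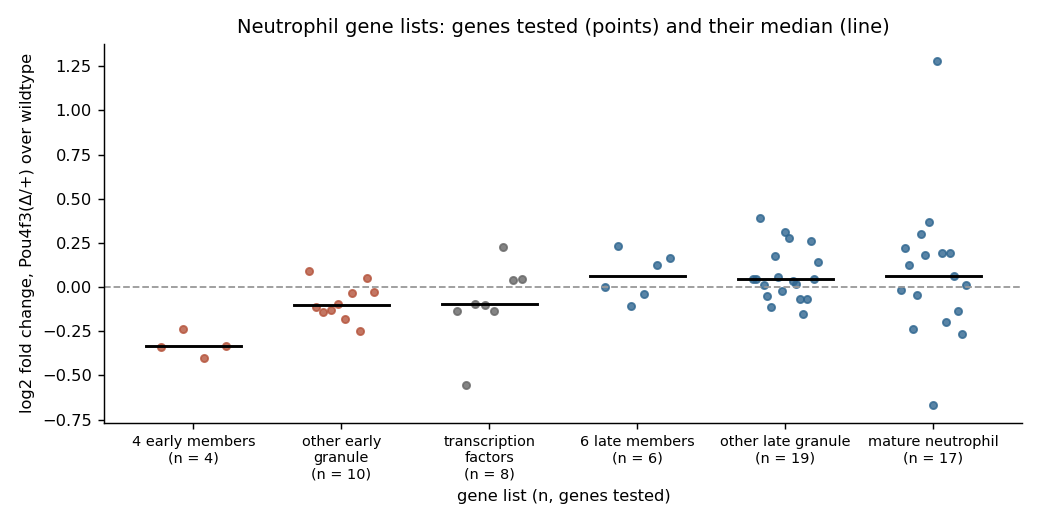
Log2 fold change, *Pou4f3(Δ/+)* over wildtype, of each tested gene (points) in 6 neutrophil lists, with the median of each list as a line. The medians are -0.33 for the 4 early granule genes, -0.10 for other early granule genes and for the transcription factors, and 0.04 to 0.06 for the late granule and mature neutrophil lists.

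Of 8 transcription factors of granulocyte formation, 1 had an unadjusted p under 0.05 by edgeR and 0 an adjusted one, with a list median of -0.10. It was *Myb*, a factor of progenitors, on the higher side, which 3.50% of all genes tested passed, at 49.8, 50.3 and 44.8 FPKM in wildtype and 54.9, 60.2 and 54.2 FPKM in *Pou4f3(Δ/+)*. Every *Pou4f3(Δ/+)* sample was above every wildtype sample, opposite in direction to the early granule genes (log2 fold change 0.23, SE 0.0818, edgeR adjusted p = 0.643). The groups of 12.7% of all genes tested likewise did not overlap in library-scaled counts, so 1 such gene in a list of 8 does not stand out. *Cebpe*, which drives the switch to secondary granules, had a log2 fold change of -0.10, and *Spi1*, which encodes PU.1, 0.04. Of 10 proliferation genes, all had positive values (median 0.13) and 0 passed either limit by edgeR.

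Markers of cells that share some of these genes, and of other cells of the tissue, were compared as well. The unadjusted limit of 0.05 was passed by 3.50% of all genes tested on the higher side and by 4.14% on the lower side. Of 12 monocyte and macrophage markers, *Cx3cr1* had an unadjusted p under 0.05 on the higher side (log2 fold change 0.47) and *Ly6c2*, a marker of young monocytes, on the lower side. *Ly6c2* was at 477, 411 and 443 FPKM in wildtype and 268, 338 and 430 FPKM in *Pou4f3(Δ/+)*, with *Pou4f3(Δ/+)* replicates 1 and 2 lowest as for the early granule genes. The list summed to 970.8 to 1111 FPKM in wildtype and 874.7 to 1041 FPKM in *Pou4f3(Δ/+)*. Of its 12 genes, however, 9 had positive and 3 negative log2 fold changes, with a median of 0.08. That median was -0.06 without *Pou4f3(Δ/+)* replicates 1 and 2 and 0.18 without *Pou4f3(Δ/+)* replicate 3. Of 7 tested mast cell and basophil markers, 3 had an unadjusted p under 0.05 on the higher side, *Mcpt8*, *Prss34* and *Fcer1a*, with a list median of 0.50, or 0.45 without *Pou4f3(Δ/+)* replicates 1 and 2 and 0.53 without *Pou4f3(Δ/+)* replicate 3. The mast cell proteases *Mcpt1*, *Mcpt4*, *Cma1*, *Tpsb2* and *Tpsab1* had 0 to 12 counts in any sample, while *Cpa3*, carboxypeptidase A3, had 118 to 234 and *Prss34* 305 to 809. The list of 12 summed to 92.6 to 107.9 FPKM in wildtype and 103.0 to 156.9 FPKM in *Pou4f3(Δ/+)*. Of 8 eosinophil markers 0 passed either limit by edgeR, with a median of 0.18, or 0.44 without *Pou4f3(Δ/+)* replicates 1 and 2 and 0.07 without *Pou4f3(Δ/+)* replicate 3. Of 11 bone markers, 4 had an unadjusted p under 0.05 on the lower side (*Sp7*, *Phex*, *Alpl* and *Col1a1*), against 4.14% of all genes. The median of the bone list was -0.21, or -0.38 without *Pou4f3(Δ/+)* replicates 1 and 2 and -0.07 without *Pou4f3(Δ/+)* replicate 3. Of 12 other cochlear genes, 3 passed on the lower side (*Kcnq1* and *Kcne1* among them), with a median of -0.17 that turned to 0.12 without *Pou4f3(Δ/+)* replicates 1 and 2 and was -0.25 without *Pou4f3(Δ/+)* replicate 3. Of the 9 hair cell markers 0 passed either limit by edgeR (median 0.08). All these genes had edgeR adjusted p-values of 0.643 or more, and their part in the granule gene values was not tested.

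The genes whose course over the 6 samples was most like that of the early granule genes, by counts scaled to the library, were *Qdpr*, *Ramp1*, *Man2c1*, *Tmsb10* and *Lst1*. Pearson's r between their log2(CPM + 1) and the mean of the early genes was 0.994, 0.993, 0.986, 0.982 and 0.982. *Ramp1*, which modifies calcitonin-type receptors, was at 15.8, 11.5 and 11.4 FPKM in wildtype and 8.52, 10.01 and 12.04 FPKM in *Pou4f3(Δ/+)*, in the order of the early genes. *Man2c1*, a cytosolic mannosidase, did not keep that order in FPKM, with 28.8, 32.5 and 27.8 in wildtype and 28.8, 29.1 and 30.9 in *Pou4f3(Δ/+)*, so its likeness holds for summed counts only. For the late granule genes they were *Anxa1*, *Spag6l*, *Mettl9*, *Sat1* and *Pih1d1*, with r of 0.991, 0.982, 0.980, 0.9752 and 0.974, of which *Spag6l* averaged only 0.323 FPKM. *Anxa1*, annexin A1 of neutrophil granules and cytoplasm, was at 314, 263 and 327 FPKM in wildtype and 279, 343 and 313 FPKM in *Pou4f3(Δ/+)*. An r over 0.95 was reached by 56 of 17126 genes (0.327%) for the early and 27 (0.158%) for the late pattern. These correlations describe 6 libraries, with the libraries and their depth shared by all genes, and carry no test.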

How the data were processed

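Bulk RNA-seq of cochleae was analysed in 3 wildtype and 3 *Pou4f3(Δ/+)* samples. Per the file headers, the authors deposited for each transcript an expected count (estimated, not normalized, 82.2% of values above 0 lying more than 1e-09 from a whole number) and an FPKM value, scaled by the authors to transcript length and sample depth. The submitters' processing notes in the labels name the build mm8 and DESeq2, and the aligner and counting program are not given in the sources used here. The members' transcript identifiers were found in GENCODE M21 (GRCm38), from which gene loci were read.

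Counts and FPKM were summed over the transcripts of a gene symbol, so a division of reads among the transcripts of a gene does not change the summed counts. Gene sums were rounded and tested with edgeR 4.0.16 in R 4.3.3 (filterByExpr with a minimum count of 10 and a minimum total of 15, TMM, quasi-likelihood test, no covariates, Benjamini-Hochberg adjustment over all 17136 genes). Confidence intervals are at 95%. The test had been checked on simulated data. DESeq2 1.42.0, limma 3.58.1 on log2(FPKM + pseudocount), other filters and scalings, and leaving out samples were the alternatives.

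The members and the gene lists were chosen with earlier results of these data known, so lists are described by counts and medians, without a test of their own. The genes named were the 10 members, the 5 genes most like each stage by Pearson's r, and, from each list, the 3 with the highest mean FPKM and those with a p under 0.05. *Ctsc*, *Prss57*, *Ms4a3*, *Cpa3* and the mast cell proteases were named beside this rule after their values were seen, and some genes that the rule selects are not reported here. Of the listed markers, 1 erythroid and 1 hair cell gene were not analysed here, and 1 late granule gene and 5 mast cell genes had too few counts to be tested.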

Additional observations from a re-analysis of the deposited data

How the results depend on the processing

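With edgeR and all 6 samples, 0 genes passed an adjusted p of 0.05. The count was 64 with DESeq2, 9 without a filter on low counts, 1 with limma on log2(FPKM + 0.1), 6 without *Pou4f3(Δ/+)* replicates 1 and 2, and 0 to 193 when 1 sample was left out, the highest without *Pou4f3(Δ/+)* replicate 3. It was 3 without wildtype replicate 4 and 0 without each of the other 4 samples. No member passed an adjusted p of 0.05 in any of the 140 alternative values. Of the 56 values for the early genes, 55 were negative, and the exception was *Elane* at 0.11 without *Pou4f3(Δ/+)* replicates 1 and 2. These values come from refits of the same samples for genes that varied together, so they are not independent. The difference of early minus late genes, -0.39, was -0.057 without *Pou4f3(Δ/+)* replicates 1 and 2 and -0.56 to -0.26 when 1 sample was left out. With 1 sample left out, *Mpo* ran from -0.57 to -0.25, *Elane* from -0.44 to -0.08, *Prtn3* from -0.52 to -0.11 and *Ctsg* from -0.49 to -0.18, the lowest without *Pou4f3(Δ/+)* replicate 3 and the highest without wildtype replicate 3. Late genes near 0 changed sign. *Camp*, at -0.0006, was 0.0019 with DESeq2 and without a filter, 0.002 with DESeq2's size factors in edgeR, 0.0031 with a mean FPKM of at least 1, 0.21 without *Pou4f3(Δ/+)* replicates 1 and 2, and -0.12 to 0.12 with 1 sample left out. With 1 sample left out, *Ltf* ran from -0.22 to 0.069, *Ngp* from -0.14 to 0.074 and *Lcn2* from -0.043 to 0.43, and *Lcn2* was -0.23 without *Pou4f3(Δ/+)* replicates 1 and 2. The cause was not tested. No paired analysis was possible because the sources used here give no litter or other pairing of the samples. With 3 samples a group, the 95% intervals of the members span 0.48 to 1.05 on the log2 scale, while each member had 2621 counts or more in every sample.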
